A study of Drosophila melanogaster with 4 samples.

Results

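Transcripts of the subunits of respiratory complexes II to V were examined in testes of *Drosophila melanogaster* males lacking *nsr*. The genes were taken by their symbols in the probe annotation, updated through a gene table of genome release 6, as those beginning with *SdhA* to *SdhD*, *UQCR*, *Cyt-c1*, *COX* and a digit, or *ATPsyn*. A gene was used where a probe set is annotated to it alone, and of several such probe sets the one of highest mean intensity was kept. This gave 42 genes of the 11981 that have a probe set of their own. Of the 42, 17 have a symbol ending in L or L2 and are duplicated paralogs of a subunit, and the other 25 are called parent subunits here. The gene table holds 52 symbols of this form, and the other 10 (*ATPsynG*, *COX1*, *COX2*, *COX3*, *COX6B*, *COX7CL*, *SdhA*, *UQCR-6.4L*, *UQCR-C1* and *UQCR-C2*) were not analysed here.

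Complexes II, III and IV pass electrons from succinate and ubiquinol through cytochrome c to oxygen, and complex V, the ATP synthase, uses the proton gradient built by complexes III and IV to make ATP. Most of their subunits are encoded in the nucleus, while the catalytic core of complex IV is encoded by mitochondrial DNA. In *Drosophila* spermatids the mitochondria fuse after meiosis into a nebenkern, which then elongates along the sperm axoneme as the mitochondrial derivatives. Many nuclear genes of the mitochondrion have duplicates in the fly genome that are expressed mainly in the testis.

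The *nsr* mutant males were homozygous for a null allele that removes nearly all of the *nsr* (*CG3875*) transcript, part of the 3′ UTR included. They were compared with WT males, a wild-type recombinant line recovered from the same gene targeting, so that both share a genetic background. All were aged 0 to 2 days, and the testes were dissected free of the seminal vesicles. RNA of whole testes was hybridised to 1-colour GeneChip *Drosophila* Genome 2.0 arrays, 2 per genotype, named *nsr* mutant 1 and 2 and WT 1 and 2. The 2 samples of a genotype were independent RNA extractions, and the sources do not state that different flies were used. The p-values therefore speak to the spread between extractions, which may be technical. The values are linear intensities, and fold changes are *nsr* mutant over WT on log2(intensity + 16). They were tested with limma and Benjamini-Hochberg adjustment over 18769 probe sets.

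The *nsr* probe set had intensities of 23.2 and 27.6 in the mutant, against 549 and 554 in WT, as the labels require (limma log2 fold change -3.78 at an adjusted p = 0.00837). The array medians ranged between 12.1 and 15.7, and the highest of 50 negative control probe sets lay between 5.70 and 8.57. The deposited values were not rescaled further for the main comparison, and over all genes the median log2 fold change was -0.06. Among genes above the negative controls on all 4 arrays it was -0.08, so that a value near 0 lies above most genes. All 31 measured spermatid genes, which include protamine and sperm tail genes, and all 15 of spermatocytes and meiosis were above the negative controls on every array. In whole testes, fewer cells of a type and less RNA per cell cannot be told apart.

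None of the 42 genes was called at an adjusted p under 0.05, where 1 of 18769 probe sets was (0.00533%), namely that of *nsr*. At an unadjusted p under 0.05 there was 1 of the 42, *COX6AL2*, against 7.13% of all probe sets. On every array, 41 of the 42 exceeded all negative controls. The exception, the probe set of *UQCR-11*, stayed near the negative controls. The log2 fold changes ran from -0.58 for *COX6AL2* to 0.27 for *COX7AL2*, and 30 of the 42 lay within 0.10 of 0. The median of the 42 was 0.03, against -0.06 over all genes. It was 0.13 with quantile normalization, where the median of all probe sets was 0.00. Centring the array medians added 0.07 to each log2 fold change.

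**Figure D1:**
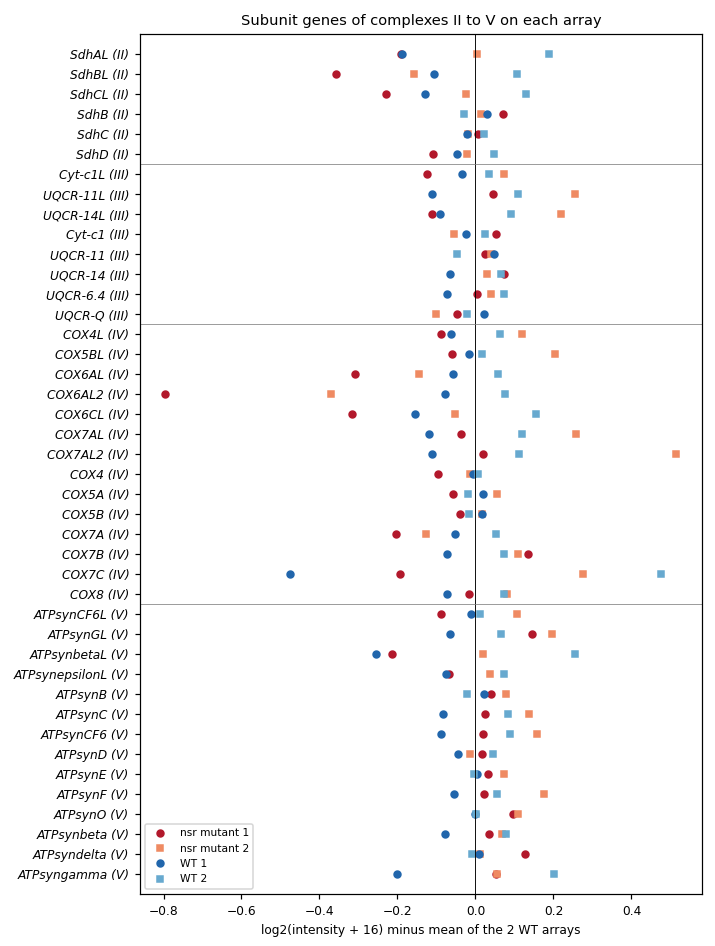
Level of each of the 42 genes on each array, as log2(intensity + 16) minus the mean of the 2 WT arrays, with the complex in parentheses, red and orange for the 2 *nsr* mutant arrays and dark and light blue for the 2 WT arrays. *COX6AL2* stands farthest to the left in the mutant, and the 2 WT arrays of *COX7C* lie farthest apart.

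The precision of these values was set by 2 arrays per genotype. The standard error (SE) of the log2 fold change ranged from 0.09 to 0.35, with a median of 0.11. For 41 of the 42 genes the 95% interval lay between -1 and 1, and for 33 it lay between -0.5 and 0.5. The gene outside -1 to 1 was *COX6AL2*, whose interval ran from -1.03 to -0.14. The other 41 intervals included 0. Among these 41, a 2-fold change in either direction was outside the interval, except for *UQCR-11*. Its intensities were so low that the constant added before taking logs compresses a 2-fold change. The interval of *UQCR-11* therefore cannot decide on such a change.

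**Figure D2:**
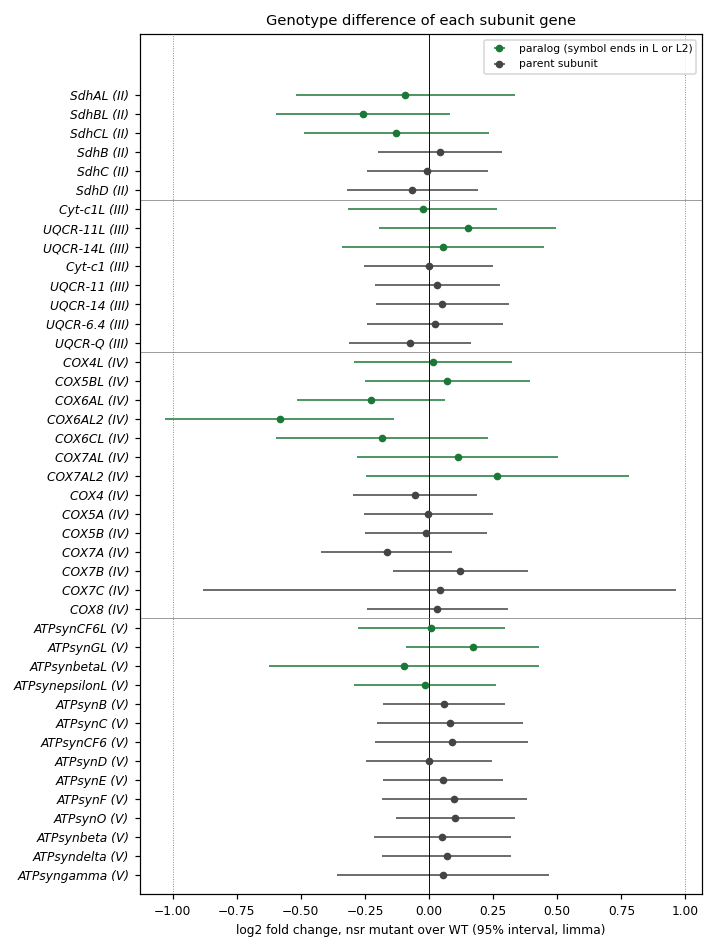
Log2 fold change of each gene, *nsr* mutant over WT, with its 95% interval from limma, grouped by complex, with paralogs in green and parent subunits in grey. The interval of *COX6AL2* is the one that does not include 0, and that of *COX7C*, from -0.88 to 0.96, is the widest.

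In complex II, the succinate dehydrogenase, the 3 paralogs had log2 fold changes below 0, as had 5745 of the 8403 genes above the negative controls. None of the 3 passed the test, and 1 of the 3 was above 0 with quantile normalization. The 3 parent subunits had values between -0.07 and 0.04. *SdhBL*, the paralog of the iron-sulfur subunit, had intensities of 359 and 415 in the mutant, against 430.3 and 502 in WT. The mutant arrays were the lower ones, with a log2 fold change of -0.26 (SE 0.13, limma adjusted p = 0.745). It was -0.17 with quantile normalization, and -0.37 to -0.15 as each array was left out. *SdhCL*, the paralog of a membrane anchor subunit, had 915 and 1056 in the mutant and 981 and 1178 in WT, and the genotypes overlapped (log2 fold change -0.13). *SdhAL*, the paralog of the flavoprotein subunit, had 281 and 324 in the mutant and 281 and 369.8 in WT, which overlap likewise (log2 fold change -0.09). Its parent was not analysed here.

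*SdhB* had 152 and 145 in the mutant and 147 and 141 in WT, a log2 fold change of 0.04. *SdhC* had 674 and 661 in the mutant and 661 and 681 in WT, and *SdhD*, the other membrane anchor, had 1366 and 1449.9 in the mutant and 1424 and 1524 in WT. For each of the 3 the mutant and WT arrays overlapped. The direction of the 3 paralogs rests on few arrays, since 2 of the 3 log2 fold changes were above 0 without WT 2, and 1 of the 3 without *nsr* mutant 1.

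Complex III, the cytochrome bc1 complex, had no gene with a large difference. *Cyt-c1*, which carries a heme group and hands electrons to cytochrome c, had 445 and 412 in the mutant and 421 and 436 in WT. Its paralog *Cyt-c1L* had 1233 and 1417 in the mutant and 1314 and 1378 in WT, a log2 fold change of -0.03. The arrays of the genotypes overlapped for both genes. *UQCR-14*, a small subunit, and *UQCR-14L* both had log2 fold changes of 0.05. *UQCR-Q* had 1543 and 1484 in the mutant and 1619 and 1569 in WT. Its log2 fold change of -0.07 (limma adjusted p = 0.909) was 0.02 with loess and 0.04 with quantile normalization. As deposited it was the 1 gene of 8 in complex III with both mutant arrays below both WT arrays, against 24.9% of all probe sets and 28.0% of those above the negative controls on all 4 arrays. The small subunit *UQCR-6.4* had a log2 fold change of 0.02.

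*UQCR-11L* had 1319 and 1529.6 in the mutant and 1183 and 1381 in WT. These overlap, and the log2 fold change of 0.15 had an SE of 0.13 (limma adjusted p = 0.861). It was 0.04 without WT 1 and 0.045 without *nsr* mutant 2, and 0.26 without either of the other arrays. The probe set of its parent *UQCR-11* had 6.04 and 6.26 in the mutant and 6.37 and 4.97 in WT, and exceeded the highest negative control on *nsr* mutant 2 alone. No genotype difference can be read for *UQCR-11*. *RFeSP*, the Rieske iron-sulfur subunit, is listed under a symbol of another form and had 1141 and 1186 in the mutant and 1066 and 1048 in WT (log2 fold change 0.14, limma adjusted p = 0.808).

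Complex IV, cytochrome c oxidase, held the widest range. *COX6AL2*, a paralog of the small subunit COX6A, had intensities of 287 and 390.1 in the mutant, against 482 and 538 in WT. The mutant mean was 338 ± 73.2 and the WT mean 509.8 ± 39.6 (SD, n = 2 each), and the genotypes did not overlap. This is a log2 fold change of -0.58 (SE 0.17, limma adjusted p = 0.690), and the unadjusted p of limma was 0.0204. It was the lowest of the 42 genes in each of the 13 alternative settings, at -0.79 to -0.37. The weakest value came without *nsr* mutant 1, and the adjusted p lay between 0.0838 and 0.988 over the settings. Another probe set that reports *COX6AL2* is shared with *Ir75d* and was not used.

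A further paralog of the same subunit, *COX6AL*, had 1157 and 1299 in the mutant and 1379 and 1497 in WT. Both mutant arrays were again below both WT arrays, with a log2 fold change of -0.23 (SE 0.11, limma adjusted p = 0.738). It was -0.11 with quantile normalization, and -0.31 to -0.14 as each array was left out. Their parent subunit COX6A is encoded by *levy*, whose loss in flies shortens life and leads to neurodegeneration. *levy* had 1175 and 1209 in the mutant and 1148 and 1201 in WT, which overlap, and a log2 fold change of 0.02. *COX6CL* had 1285 and 1546 in the mutant and 1440.1 and 1788 in WT (log2 fold change -0.19), while its parent *cype* had 1268 and 1467 in the mutant and 1231 and 1397 in WT (log2 fold change 0.06). The genotypes overlapped for *COX6CL* and *cype*, and the value of *COX6CL* was -0.03 without WT 2, -0.05 without *nsr* mutant 1, -0.34 without WT 1 and -0.32 without *nsr* mutant 2. *levy* and *cype* fall outside the symbol rule and were read as the parents of these paralogs.

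**Figure D3:**
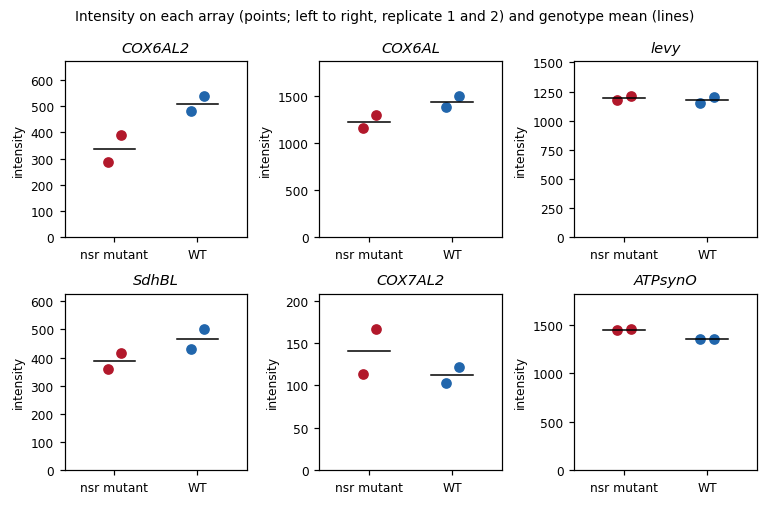
Intensity on each array for 6 genes, with *nsr* mutant arrays in red, WT arrays in blue and lines at the genotype means. The mutant points lie below the WT points for *COX6AL2*, *COX6AL* and *SdhBL*, above them for *ATPsynO*, and among them for *levy* and *COX7AL2*.

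In the COX7A family both paralogs had a higher log2 fold change than the parent subunit. The parent *COX7A* had 1352 and 1426 in the mutant and 1503 and 1618 in WT, with both mutant arrays below both WT arrays (log2 fold change -0.17, limma adjusted p = 0.777). The value was -0.09 with array medians centred, -0.07 with loess and -0.03 with quantile normalization. *COX7AL* had 1848 and 2269.8 in the mutant and 1745 and 2058 in WT, and overlapped (log2 fold change 0.11, and below 0 without *nsr* mutant 2 or WT 1). *COX7AL2* had 113 and 167 in the mutant and 102 and 122 in WT. Its log2 fold change of 0.27 was the highest of the 42, with an SE of 0.20, and came mostly from *nsr* mutant 2, as it was 0.02 without that array. Its probe set is of the kind that can share probes with transcripts of other genes, marked by the suffix s_at, as are those of *ATPsynC*, *ATPsynD*, *ATPsynE* and *ATPsynF*.

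The other subunits of complex IV differed less. *COX4* had 1086 and 1151 in the mutant and 1157 and 1167 in WT, and a log2 fold change of -0.06 as deposited, where the mutant arrays were the lower ones. With array medians centred it was 0.02, with loess 0.03 and with quantile normalization 0.06. *COX4L* had 2543 and 2941 in the mutant and 2591 and 2826 in WT, which overlap (log2 fold change 0.02). *COX5B* and its paralog *COX5BL* had log2 fold changes of -0.01 and 0.07, *COX5A* stayed within 0.01 of 0, and *COX8* had 0.03. *COX7B* had 917 and 900.0 in the mutant and 792 and 877 in WT, so that both mutant arrays were above both WT arrays (log2 fold change 0.12). A further probe set of *COX7B* overlapped between the genotypes (log2 fold change -0.05), and yet another was below the negative controls on all 4 arrays.

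*COX7C* varied more between the arrays of one genotype than any other gene of the 42. It had 1037 and 1442 in the mutant and 850 and 1659 in WT, so that the WT arrays alone spanned both mutant values. Its log2 fold change was 0.04 with an SE of 0.35, at a mutant mean of 1239 ± 286 and a WT mean of 1254 ± 572 (SD, n = 2 each). A second probe set of *COX7C* gave 1244 and 1167 in the mutant and 1064 and 1198 in WT. There the arrays of one genotype lay closer together, and the log2 fold change was 0.09 (SE 0.11).

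Complex V, the ATP synthase, had parent subunits slightly higher in the mutant, none of which passed the test. All 10 parent subunits under an *ATPsyn* symbol had log2 fold changes above 0, as had 2658 of the 8403 genes above the negative controls. They ran from 0.00 for *ATPsynD*, a peripheral stalk subunit, to 0.10 for *ATPsynO*, which links the peripheral stalk to the catalytic head. The complex V genes *blw* and *sun*, outside the symbol rule, had log2 fold changes below 0, of -0.06 and -0.003. In 4 of the 10 both mutant arrays were above both WT arrays, where the same held for 7.82% of the probe sets above the negative controls on all 4 arrays and 10.2% of all probe sets. With array medians centred, quantile normalization and loess all 10 stayed above 0, at medians of 0.14, 0.16 and 0.16, against 0.06 as deposited. Without WT 1, 5 of the 10 were above 0, with a median of 0.02, and without *nsr* mutant 1, 9 were. Leaving out the 4 with an s_at probe set, the other 6 were all above 0 as deposited, and 3 of the 6 had both mutant arrays above both WT arrays.

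*ATPsynO* had 1440.2 and 1455 in the mutant and 1346 and 1348 in WT. The arrays of each genotype lay close together and the genotypes did not overlap, but the value of 0.10 on the log2 scale (SE 0.09) was not called (limma adjusted p = 0.860). The peripheral stalk subunit gene *ATPsynB* had 2312 and 2372 in the mutant and 2283 and 2212 in WT. *ATPsynE*, a membrane subunit, had 2155 and 2218 in the mutant and 2112 and 2100.5 in WT. *ATPsyndelta*, of the central stalk, had 942 and 869 in the mutant and 867 and 855 in WT. In these 3 genes the mutant arrays also lay above both WT arrays, with log2 fold changes between 0.05 and 0.07.

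For the other 6 parent subunits of complex V the genotypes overlapped on the probe set kept for the gene. The gene of the catalytic beta subunit, *ATPsynbeta*, had 989 and 1014 in the mutant and 915 and 1020.0 in WT (log2 fold change 0.05). Its second probe set had 331 and 360.3 in the mutant and 253 and 326 in WT, a log2 fold change of 0.25 with an SE of 0.15. On that probe set both mutant arrays were above both WT arrays. The gamma subunit gene *ATPsyngamma*, of the rotating central stalk, had 716 and 718 in the mutant and 598 and 796 in WT, so that the WT arrays lay on either side of the mutant ones. A further probe set of this gene gave -0.02. *ATPsynC*, which encodes the subunit of the membrane rotor ring, had a log2 fold change of 0.08, *ATPsynCF6* one of 0.09, and *ATPsynF* one of 0.10. *blw*, the gene of the catalytic alpha subunit, which has a symbol of another form, had 1268 and 1438 in the mutant and 1255 and 1584 in WT (log2 fold change -0.06).

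Among the 4 paralogs of complex V, *ATPsynGL* had 2098 and 2174 in the mutant and 1812 and 1985 in WT. Its mutant arrays lay above its WT arrays, with a log2 fold change of 0.17 (SE 0.10, limma adjusted p = 0.777). The probe set of its parent *ATPsynG* also reports another gene and was not used. *ATPsynCF6L*, *ATPsynepsilonL* and *ATPsynbetaL* overlapped between the genotypes, with log2 fold changes of 0.01, -0.02 and -0.10. *ATPsynbetaL* had 162 and 193 in the mutant and 157 and 229.9 in WT, and its value ran from -0.35 to 0.16 as each array was left out in turn.

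Over all 4 complexes the paralogs spread more widely than the parent subunits, a difference that was not tested. No SD was taken over all genes, so the spread of neither group can be set against theirs. The median absolute log2 fold change, which also holds any common offset from 0, was 0.11 over the paralogs and 0.054 over the parents. It was 0.12 over all genes. Over genes above the negative controls on all 4 arrays it was 0.13. With quantile normalization this median was 0.11 over the paralogs and 0.14 over the parents. The SD of the log2 fold changes was 0.20 over the 17 paralogs and 0.065 over the 25 parent subunits. With quantile normalization it was 0.20 over the paralogs and 0.062 over the parents. The SD of the parents was at most 0.13 as each array was left out, without WT 2, where that of the paralogs was 0.20. The parents include *UQCR-11*, whose value cannot be read. The median log2 difference between the 2 arrays of a genotype was 0.21 in the mutant and 0.18 in WT over the paralogs. Over the parents it was 0.03 in the mutant and 0.09 in WT. The part of these differences in the spread was not tested. The median log2 fold change was -0.02 over the paralogs and 0.04 over the parents, against -0.06 over all genes. The paralog median was 0.06 with array medians centred and 0.08 with quantile normalization, and the parent median was -0.015 without WT 1. The mutant arrays were both below the WT arrays in 3 of 17 paralogs and 3 of 25 parents, against 24.9% of all probe sets and 28.0% of those above the negative controls. They were both above the WT arrays in 1 of 17 paralogs and 5 of 25 parents, beside the 10.2% and 7.82% given for complex V.

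Each paralog was set against its own parent through the log2 ratio of their intensities within an array, since levels of different probe sets are not comparable. There were 15 such pairs, 4 of them with a parent under another symbol (*levy* for 2 paralogs, *cype*, and *sun* for *ATPsynepsilonL*). In 14 of them the parent could be read, *UQCR-11* being the exception. The log2 fold change was lower for the paralog in 9 of the 14 and higher in 5, with a median difference of -0.05. The ratio did not remove the difference between the arrays of a genotype. It was higher on *nsr* mutant 2 than on *nsr* mutant 1 in 13 of the 14, and higher on WT 2 than on WT 1 in 13. *COX6AL2* against *levy* had the lowest difference, with log2 ratios of -1.98 and -1.59 in the mutant and -1.23 and -1.14 in WT, which differ by -0.60. *SdhBL* against *SdhB* had 1.16 and 1.42 in the mutant and 1.45 and 1.73 in WT, a difference of -0.30. *COX7AL2* against *COX7A* had the highest, with -3.40 and -2.98 in the mutant and -3.68 and -3.56 in WT, a difference of 0.43. No pair passed an exact permutation test over the 4 arrays (two-sided, adjusted p from 0.833 to 1 over the 15 pairs), a design in which p cannot go below 0.333.

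**Figure D4:**
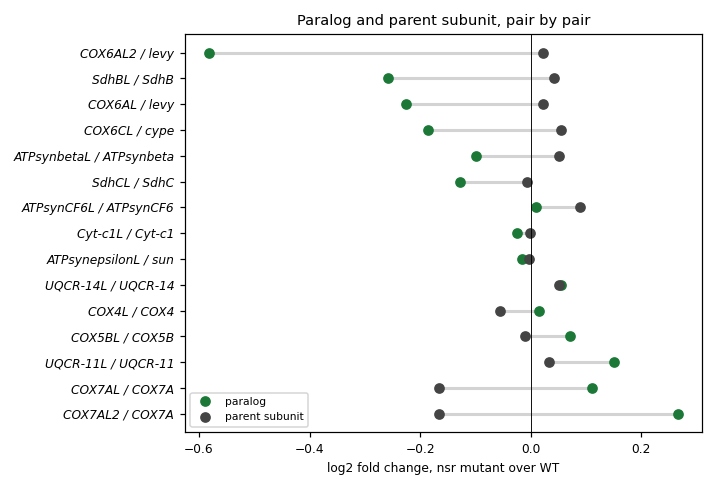
Log2 fold change, *nsr* mutant over WT, of each paralog (green) and its parent subunit (grey), ordered by their difference. *COX6AL2* and *levy* lie farthest apart with the paralog lower, and *COX7AL2* and *COX7A* with the paralog higher.

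In the gene table of release 6 the paralog and the parent lie on different chromosome arms in 10 of the 15 pairs. *COX5BL* and *COX5B* are separated by 1 gene on 2L and *COX7AL* and *COX7A* by 2 genes on 3R. Their differences between paralog and parent were 0.08 and 0.28. Of the 17 paralogs 1, *SdhBL*, is on the X chromosome, while *UQCR-14* and *sun* are X-linked parents whose paralogs *UQCR-14L* and *ATPsynepsilonL* are on 3R. *ATPsyndelta* is on the X too.

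The 2 arrays of a genotype also differed from each other, array 2 being the higher. The median log2 difference was 0.21 in the mutant and 0.18 in WT over the paralogs, and 0.03 in the mutant and 0.09 in WT over the parent subunits. Over genes above the negative controls on all 4 arrays it was 0.14 in the mutant and 0.18 in WT. Each of the 17 paralogs was more intense on *nsr* mutant 2 than on the other mutant array, and each was more intense on WT 2 than on WT 1. The same held for 17 of 25 parent subunits in each genotype, and for 76.6% and 86.1% of genes above the negative controls. Against each gene's mean over the 4 arrays, the paralogs had median log2 shifts of -0.11 on *nsr* mutant 1, 0.09 on *nsr* mutant 2, -0.07 on WT 1 and 0.06 on WT 2. The parents stayed between -0.03 and 0.03 on all 4. The array *nsr* mutant 1 was the lowest for 11 of 17 paralogs and 5 of 25 parents, against 51.1% of the probe sets above the negative controls. It was the lowest for 0 of the 10 parent subunits of complex V. WT 2 was the highest array for 8 of 17 paralogs and 9 of 25 parents, against 58.7% of the same probe sets.

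The 31 spermatid genes had shifts of -0.14, 0.04, -0.02 and 0.12 on the same arrays, and summed intensities of 55891 and 61699 in the mutant, against 61402 and 66855 in WT. In 14 of the 31 the mutant arrays were both below the WT arrays, against 28.0% of the probe sets above the negative controls. The 12 muscle genes measured, of 16 listed, had shifts of -0.13, 0.23, -0.11 and 0.11, and summed intensities of 2171 and 2788 in the mutant, against 2438 and 2776 in WT. All of these genes were above the negative controls on every array. Both lists were thus higher on the second array of each genotype, as the paralogs were. Genes above the negative controls on all 4 arrays were higher there too, with shifts of -0.11, 0.03, -0.04 and 0.13. The difference between arrays is therefore not particular to these lists or to the paralogs. The part of either list in the values of the paralogs was not tested.

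**Figure D5:**
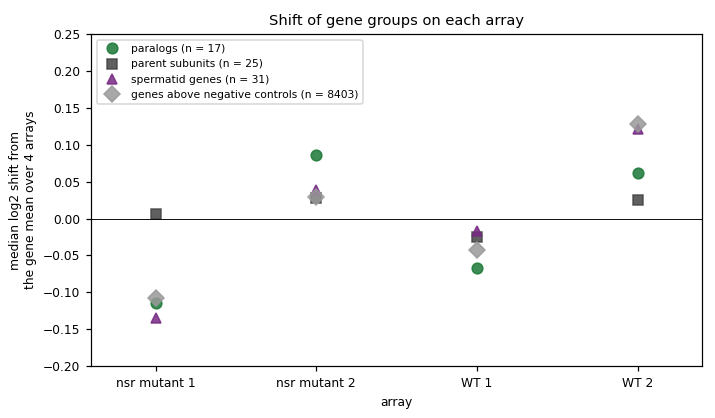
Median shift of each gene group on each array, as log2(intensity + 16) minus the gene's mean over the 4 arrays, for the 17 paralogs, the 25 parent subunits, 31 spermatid genes and 8403 genes above the negative controls. The parents lie between -0.03 and 0.03 on every array, and the paralogs between -0.11 and 0.09.

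Other genes of mitochondrial respiration were read as lists, and none of their members was called. Of 40 complex I genes 32 were measured, with a median log2 fold change of 0.05, against -0.06 over all genes. Both mutant arrays were above both WT arrays in 7 of the 32 and below in 6, against 7.82% above and 28.0% below among probe sets over the negative controls. The most extreme values were -0.29 for *ND-B12*, with 63.2 and 82.5 in the mutant and 85.4 and 98.3 in WT, -0.18 for *ND-B14* and 0.17 for *ND-20*. The 13 assembly factors measured, of 14 listed, had a median of 0.01. Among them *Sirup*, which assists the assembly of complex II, had 259 and 293 in the mutant and 359 and 337 in WT, with no overlap (log2 fold change -0.32, limma adjusted p = 0.690). *Sdhaf3*, another complex II assembly factor, had 155.8 and 167 in the mutant and 114 and 154 in WT (log2 fold change 0.26), and there the mutant arrays were the higher ones. *Coa7* had the most extreme value of the list, -0.36, but its genotypes overlapped.

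The 13 genes of the tricarboxylic acid cycle that were measured, of 16 listed, had a median log2 fold change of -0.16. *ScsbetaA*, a subunit of succinyl-CoA synthetase, which makes the succinate that complex II oxidises, had 1697 and 1835 in the mutant and 2353 and 2565 in WT. The genotypes did not overlap, but the value of -0.47 on the log2 scale (SE 0.10) was not called (limma adjusted p = 0.690). The isocitrate dehydrogenase subunit gene *Idh3b* had a log2 fold change of -0.32, also without overlap. These were the 2 of the 13 with both mutant arrays below both WT arrays. The same held for 28.0% of the probe sets above the negative controls on all 4 arrays. The 6 carriers and porins had a median of -0.09, among them the ADP/ATP carrier *Ant2* with 930.2 and 1105 in the mutant and 1173 and 1408 in WT (log2 fold change -0.34). *Porin2*, a paralog of the outer membrane channel gene *porin*, had -0.18 and *porin* -0.09. The 6 subunit genes of complexes III to V measured here under symbols of another form (*RFeSP*, *ox*, *levy*, *cype*, *blw* and *sun*) had a median of 0.04. The genes of cytochrome c were not analysed here.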

How the data were processed

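Testis RNA of *nsr* mutant and WT flies was labelled and hybridised by the authors to GeneChip arrays, 2 per genotype. The authors deposited a linear intensity for each probe set on each array. How it was summarised from the probes, corrected for background or scaled was not stated in any source read. The 18952 probe sets include 183 Affymetrix controls, which did not enter the tests. The controls named by the accession of a protein, 50 in all, served as negative controls. Annotation symbols were updated by gene ID through the table of genome release 6, which held 13543 of 13646 single-gene probe sets and all 42 members.

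Genotypes were compared on log2(intensity + 16) with limma 3.58.1 (lmFit, then eBayes) under R 4.3.3, two-sided and without covariates, and called at an adjusted p under 0.05. The methods of the study name SAM, which was not run. Pairs of paralog and parent were compared by an exact permutation test. The limma step was also run on simulated data, with spreads drawn from those limma had fitted here and no shifts between arrays. Sharing the assumptions of limma, that run cannot decide how the test behaves on the real arrays. The tables were made with pandas 2.3.3, scipy 1.17.1 and numpy 2.4.6 under Python 3.11.15, the figures with matplotlib 3.10.9. Precision is limited by there being 2 arrays per genotype.

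The members and lists were chosen with earlier results of these data known. Named are the 12 members with the largest changes, both genes of each pair, members near the negative controls or with several probe sets, and from each list at most 3 genes, those of largest change. The other members and list genes named, and the parents *levy*, *cype* and *sun*, were added with their values in view. The marker lists not described in the report covered somatic testis cells, accessory gland, ejaculatory duct and bulb, and fat body, at median log2 fold changes of -0.16, 0.18, -0.07 and -0.01, and spermatocytes and meiosis and spermatids had 0.02 and -0.10, muscle 0.03. Of the 11 accessory gland genes 3 exceeded the negative controls on every array, and these had a median of -0.17.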

Additional observations from a re-analysis of the deposited data

How the results depend on the processing

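None of the 42 genes was called in any of the 13 alternatives, while the number of probe sets called, 1 as reported, was 0 with a pseudocount of 1, 2 with loess, 3 with quantile normalization, 111 with array medians centred and 120 without probe sets below the median level. It was 0 without any 1 of the 4 arrays. The median log2 fold change of the 42 genes, 0.03, was 0.13 with quantile normalization and 0.11 with loess, and that of the parent subunits, 0.04, was 0.11 with medians centred, 0.14 with quantile normalization and 0.12 with loess. The cause was not tested. Leaving out each array in turn gave -0.03 to 0.06 for the 42 genes, -0.015 to 0.050 for the parent subunits and -0.11 to 0.08 for the paralogs. Scaling turned the sign of 8 to 10 of the 42 genes, the largest of which had been 0.09 from 0, and leaving out an array that of 7 to 15.

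With the replicate number as a block, 2 probe sets were called and none of the 42 genes. In this balanced design a block cannot move a fold change. The labels do not say that a number marks a shared batch, and deviations of same-numbered arrays correlated at 0.15 over all probe sets, across probe sets.

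Signal over background limits *UQCR-11*, which exceeded the highest negative control on 1 array. For the other genes the limits are the 2 arrays per genotype and the scaling between arrays, which turned the sign of 8 to 10 of the 42. The s_at probe sets are a further limit for 5 genes.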
